A study of Vitis vinifera with 6 samples.

Results

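Genes of the flavonol branch of grapevine metabolism and of its light-responsive control were followed here: the flavonol synthase (FLS) genes VIT_218s0001g03470 and VIT_218s0001g03430, MYBF1 (VIT_207s0005g01210), HY5 (VIT_204s0008g05210) and HYH (VIT_205s0020g01090). They were chosen by identifier, with earlier results of these data known, and all 5 were found among the 31843 genes of the count table. The names are those of the list that defined the set, since the RefSeq gene table used here matched 0 of the V2.1 identifiers. By the number inside each identifier, the FLS genes lie on chromosome 18, MYBF1 on chromosome 7, HY5 on chromosome 4 and HYH on chromosome 5. No sequence of these genes was used here.

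Ribosome-depleted RNA of the white grapevine cultivar Chardonnay was sequenced from 3 leaf and 3 embryogenic callus (EC) samples. Leaf samples each pooled several young leaves from vineyard vines, and EC samples each pooled several dishes of dedifferentiated callus that had been raised from anthers of the same vines. The callus was kept on solid medium in the dark, so tissue, culture and light cannot be told apart in this comparison. No source states that the samples of a tissue came from separate vines or separate callus lines, so the p-values measure the spread between these samples only.

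Flavonols are yellow-tinted phenolics that absorb ultraviolet light, and in grapevine they accumulate mainly in sun-exposed skin and leaf tissue. FLS is the dioxygenase that turns dihydroflavonols into flavonols, at the point where the same precursors can also enter the anthocyanin and tannin branch. MYBF1 is a MYB transcription factor that activates grapevine FLS genes. HY5 and its homologue HYH are bZIP transcription factors that act downstream of photoreceptors, and in Arabidopsis HY5 protein is removed in the dark.

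Counted reads per library ranged from 13123072 to 24209752, the lowest total being that of leaf replicate 3. The study lists a total of sequenced read pairs for leaf replicate 3 within the range of the other libraries. It lists the lowest shares of mapped and of properly paired reads for leaf replicate 3, on the reference genome used for counting. This library stood apart from the other leaf libraries before any comparison was made. The 100 features with the most counts held 36.4% of its reads, against 16.0% to 18.8% in the other libraries, and its library scaling factor (TMM, trimmed mean of M-values) was 0.658, against 0.961 to 1.19. Levels are given as reads per 1000000 counted reads (RPM), and 3 counts, the smallest number read here as a signal, correspond to 0.229 RPM in leaf replicate 3 and to 0.124 to 0.137 RPM elsewhere. Leaf identity was not checked, since 0 identifiers matched the RefSeq gene table and no marker gene could be named. The identifiers that the study links to chloroplast photosynthesis genes were removed by the authors and were not analysed here. In whole-tissue RNA, fewer cells of a type and less RNA per cell cannot be told apart.

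Within the FLS pair, and likewise between HY5 and HYH, the fitted differences between tissues had opposite signs. In the fit without leaf replicate 3, FLS VIT_218s0001g03470, MYBF1 and HYH were lower in EC than in leaf, whereas FLS VIT_218s0001g03430 and HY5 were higher in EC. With all 6 libraries the signs were unchanged, but the call was reached only for MYBF1 and HYH (higher in leaf) and for FLS VIT_218s0001g03430 (higher in EC). A call required an adjusted p under 0.05 from the quasi-likelihood method of edgeR, adjusted over all 21550 features after Benjamini and Hochberg. Of those features 29.2% were called higher in leaf and 24.9% higher in EC, so 3 called members of 5 compare with a background of 54.1%. With leaf replicate 3 left out, all 5 members were called, 3 higher in leaf and 2 higher in EC, against 79.8% of 22537 features (41.3% higher in leaf and 38.5% higher in EC). On the TMM scale, the leaf libraries all lay above the EC libraries for MYBF1 and HYH, as for 34.1% of all features, and the reverse separation was found for FLS VIT_218s0001g03430 and HY5, as for 35.4% of all features. These shares are near the background, and what follows therefore rests on the size and direction of each gene's difference rather than on the number of calls.

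**Figure D1:**
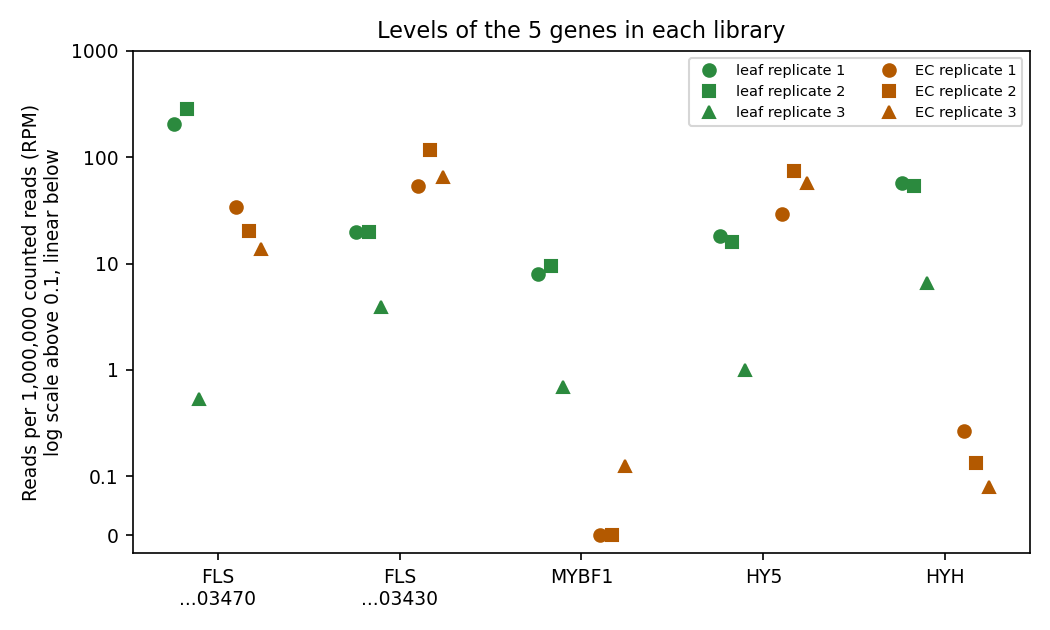
Level of each of the 5 genes in each library, in reads per 1000000 counted reads (RPM) on a scale that is logarithmic above 0.1 and linear below. Each point is a library (green, leaf; orange, EC). Leaf replicate 3 lies below the other leaf libraries for all 5 genes, and the EC points of MYBF1 and HYH lie at or below 0.266 RPM.

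FLS VIT_218s0001g03470 had its highest levels in leaf replicates 1 and 2. It had 4886, 6233 and 7 counts in leaf replicates 1, 2 and 3 and 773, 450 and 332 counts in EC replicates 1, 2 and 3. In RPM these were 207, 284 and 0.533 in leaf and 34.2, 20.2 and 13.7 in EC. Leaf replicates 1 and 2 thus stood above every EC library and leaf replicate 3 below every EC library, so the tissues overlapped.

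With all libraries, FLS VIT_218s0001g03470 averaged 164 ± 147 RPM over the leaf libraries and 22.7 ± 10.5 RPM over the EC libraries (SD, n = 3). The log2 fold change of EC over leaf was −3.13 with a standard error of 1.60, which did not pass (adjusted p = 0.149, edgeR). When leaf replicate 3 was left out it was −3.70 with a standard error of 0.39 (adjusted p = 2.12e-04, edgeR), that is, 13.0-fold lower in EC. DESeq2 on all 6 libraries gave −3.16 and did pass (adjusted p = 0.0399), with 32.9% of its features called higher in leaf and 24.4% higher in EC. The gene also passed, at −3.86, in limma-voom with sample weights, a fit added after seeing the data. That fit called 41.0% of features higher in leaf and 40.4% higher in EC. Without weights, limma-voom gave −1.70 and did not pass (adjusted p = 0.529). Nor did edgeR with a replicate block (−1.96, adjusted p = 0.489). Of the 15 alternatives that tested this gene, these 3 passed and the other 12 did not.

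FLS VIT_218s0001g03430, the other FLS gene of the same stretch of chromosome 18, showed the opposite pattern. It had 463, 433 and 51 counts in the leaf replicates and 1202, 2574 and 1571 counts in the EC replicates, or 19.6, 19.8 and 3.89 RPM in leaf and 53.3, 116 and 64.9 RPM in EC. Every EC library stood above every leaf library. Leaf libraries averaged 14.4 ± 9.11 RPM and EC libraries 77.9 ± 33.1 RPM (SD, n = 3).

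The log2 fold change of FLS VIT_218s0001g03430 was 2.07 with a standard error of 0.56, a 4.21-fold higher level in EC (adjusted p = 0.0246, edgeR). The call was lost without leaf replicate 1 (adjusted p = 0.0506, edgeR), without EC replicate 2 (0.0758) and without EC replicate 3 (0.0576), while the log2 fold change stayed between 1.71 and 2.30 whichever library was left out. The value without leaf replicate 3 was 1.71 (adjusted p = 0.0038, edgeR).

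Since both FLS genes were counted in the same library, their proportion does not depend on scaling between libraries. VIT_218s0001g03470 took 91.3% of the counts of the pair in leaf replicate 1 (95% Wilson interval 90.6% to 92.1%) and 93.5% in leaf replicate 2 (92.9% to 94.1%). In EC its share was 39.1% (37.0% to 41.3%), 14.9% (13.7% to 16.2%) and 17.4% (15.8% to 19.2%) in replicates 1, 2 and 3. In leaf replicate 3 it was 12.1% (5.97% to 22.9%), on 58 counts for the pair. That library therefore fell with the EC libraries in this proportion, although its summed level of the pair was 4.42 RPM against 78.6 to 136 RPM in EC. These intervals cover counting error only, and gene length enters the shares, so only their change between libraries is read.

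Over all libraries VIT_218s0001g03470 took on average 65.6% ± 46.4 of the pair in leaf and 23.8% ± 13.3 in callus (SD, n = 3), a difference of −41.8 percentage points that did not exceed the spread between libraries (two-sided exact permutation test, p = 0.4; smallest possible p 0.1). Among the remaining 5 libraries, with leaf replicate 3 out, the difference was −68.6 percentage points and the tissues did not overlap, with p = 0.2 by the same exact permutation test. Neither 6 nor 5 libraries can reach 0.05 in this test. Reads shared by FLS copies could be split between them in counting, so the exact proportions are uncertain.

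**Figure D2:**
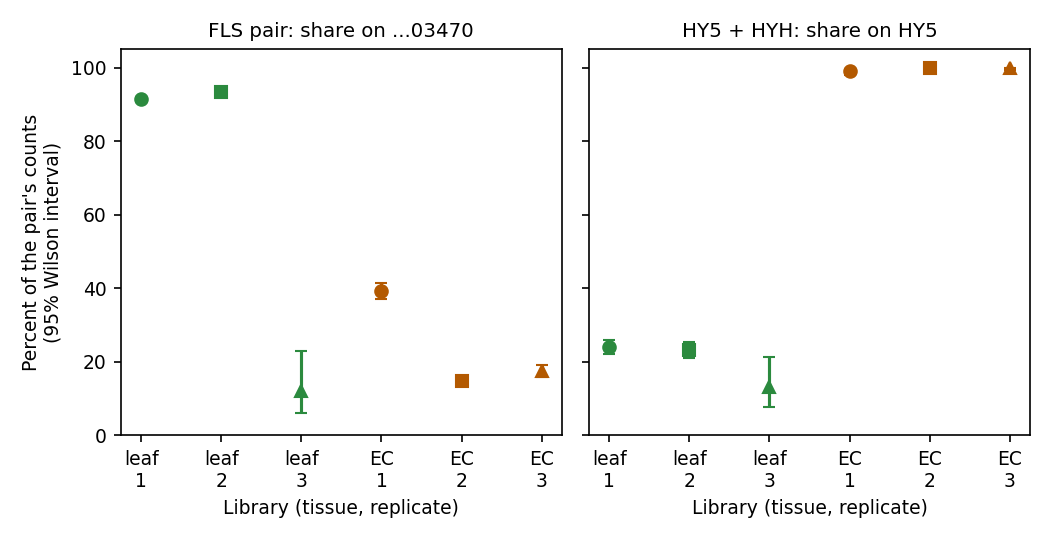
Percent of the counts of the FLS pair that fell on VIT_218s0001g03470 (left) and percent of HY5 plus HYH counts that fell on HY5 (right), by library, with 95% Wilson intervals for counting error. The FLS share is above 91% in leaf replicates 1 and 2 and below 40% in the other 4 libraries, while the HY5 share is below 24% in all 3 leaf libraries and above 99% in all 3 EC libraries.

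MYBF1, the activator of FLS genes, was at the limit of detection in EC. Its counts were 189, 207 and 9 in the leaf replicates and 0, 0 and 3 in the EC replicates, which in leaf was 7.99, 9.45 and 0.686 RPM. Even the 9 counts of leaf replicate 3 lay above every EC library. The log2 fold change was −7.26 with a standard error of 1.36 (adjusted p = 0.0072, edgeR), and it depends on how the model treats counts of 0.

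From the counts alone, with 405 counts in leaf and 3 in EC, pooled MYBF1 RPM was 159-fold higher in leaf, with a 95% exact interval for counting error of 54.0 to 774. Leaving out leaf replicate 3 gave a ratio of 200.1 (68.0 to 974). The call for MYBF1 was kept with every library left out in turn, but its fitted log2 fold change went to −10.06 without EC replicate 3, the library with the 3 counts, and lay between −7.74 and −6.73 without any other.

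The low MYBF1 level in EC stood beside a summed level of the FLS pair of 78.6 to 136 RPM. The FLS pair had 28.3, 32.2 and 6.44 counts for each MYBF1 count in leaf replicates 1, 2 and 3. In EC replicate 3 it had 634, and in EC replicates 1 and 2, where MYBF1 had no count, at least 658 and 1008 when 3 counts per library were taken as the floor. All EC libraries lay above all leaf libraries in this ratio, leaf replicate 3 included. On the log2 scale with 0.5 added to each count, the difference of EC from leaf was 7.05 (exact permutation test, two-sided, p = 0.1, which is the smallest that 6 libraries allow; 0.15 after Benjamini-Hochberg adjustment over the 3 within-library comparisons). Its size is set largely by the number added, since MYBF1 had no count in EC replicates 1 and 2: with 3 added to each count the difference was 5.17, from pooled counts it was 6.05, and it was 6.29 without leaf replicate 3 and 8.11 without EC replicate 3. Of the FLS counts in EC, most fell on VIT_218s0001g03430, whereas in leaf replicates 1 and 2 most fell on VIT_218s0001g03470. The summed ratio therefore describes neither FLS gene alone.

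HYH, like MYBF1, was close to absent in EC. Its counts were 1364, 1164 and 86 in the leaf replicates and 6, 3 and 2 in the EC replicates, or 57.7, 53.1 and 6.55 RPM in leaf and 0.266, 0.135 and 0.0826 RPM in EC. The lowest leaf library was above the highest EC library. Fitted over all libraries, the log2 fold change was −8.20 with a standard error of 0.99 (adjusted p = 0.0017, edgeR), a 294-fold lower level in EC.

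The pooled counts of HYH, 2614 in leaf and 11 in EC, gave a ratio in RPM of 279.7 with a 95% exact interval for counting error of 156 to 561. With leaf replicate 3 left out, the log2 fold change was −8.66 with a standard error of 0.21 (adjusted p = 5.43e-07, edgeR).

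HY5 was at a higher level in every EC library than in any leaf library, but the call depended on leaf replicate 3. It had 430, 351 and 13 counts in the leaf replicates and 660, 1664 and 1372 counts in the EC replicates, or 18.2, 16.0 and 0.991 RPM in leaf and 29.2, 74.7 and 56.7 RPM in EC. The spread within each tissue was wide, with averages of 11.7 ± 9.37 RPM for leaf and 53.5 ± 22.9 RPM for EC (SD, n = 3).

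For HY5 the log2 fold change of 1.86, with a standard error of 0.87, did not pass with all libraries (adjusted p = 0.121, edgeR). It was 1.37, with a standard error of 0.37, in the fit without leaf replicate 3 and passed there (adjusted p = 0.0149, edgeR), a 2.58-fold higher level in EC. DESeq2 on all libraries gave 1.84 (adjusted p = 0.0622).

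Set against each other within a library, the bZIP genes separated the tissues in all 6 libraries. HY5 held 24.0% (95% Wilson interval 22.1% to 26.0%), 23.2% (21.1% to 25.4%) and 13.1% (7.84% to 21.2%) of the HY5 plus HYH counts in leaf replicates 1, 2 and 3. In the EC replicates it held 99.1%, 99.8% and 99.9%, and the lowest bound of these intervals was 98.0%. Its mean share was 20.1% ± 6.04 over leaf libraries and 99.6% ± 0.427 over EC libraries (SD, n = 3). The difference of 79.5 percentage points was the most extreme of all arrangements of the 6 libraries (exact permutation test, two-sided, p = 0.1, again the smallest possible; 0.15 after adjustment over the 3 comparisons). HYH had only 6, 3 and 2 counts in the EC replicates, so the HY5 share there would be high even without a change in HY5. The comparison thus restates the HYH difference and is no separate evidence on HY5. Unlike the FLS share, the HY5 share placed leaf replicate 3 on the side of the other leaf libraries. Summed over both genes the level was 75.9, 69.1 and 7.54 RPM in the leaf replicates and 29.5, 74.8 and 56.8 RPM in the EC replicates, so the summed levels of the tissues overlapped.

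**Figure D3:**
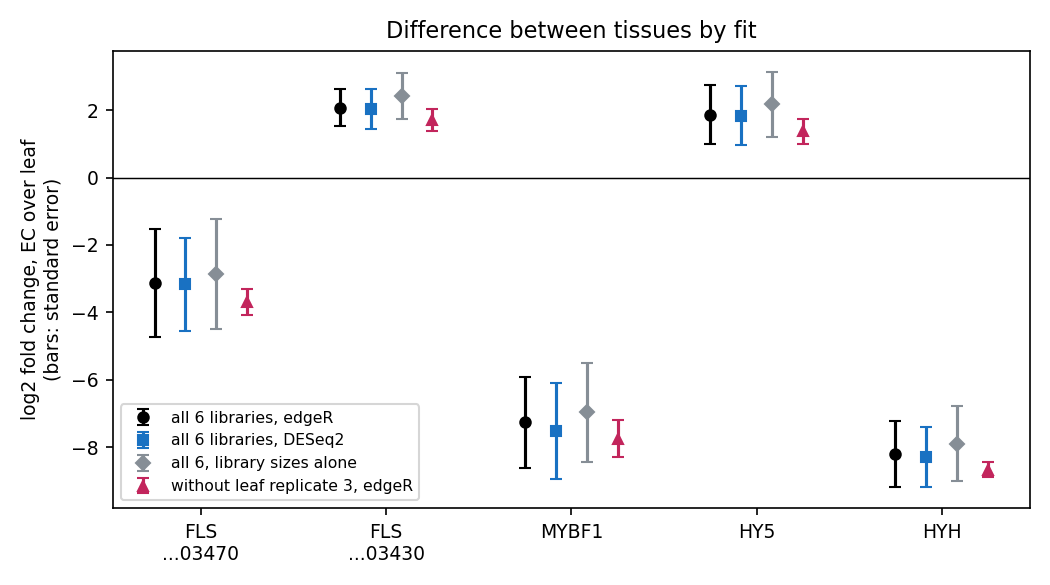
Log2 fold change of EC over leaf for the 5 genes, with standard errors, in 4 fits: edgeR on all 6 libraries, DESeq2 on all 6 libraries, edgeR with library sizes alone, and edgeR without leaf replicate 3. The sign of every gene is the same in the 4 fits, and the standard errors are smallest without leaf replicate 3.

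Leaf replicate 3 was low for every member. Relative to the mean of leaf replicates 1 and 2, its RPM was lower 460-fold for FLS VIT_218s0001g03470, 17.3-fold for HY5, 12.7-fold for MYBF1, 8.45-fold for HYH and 5.06-fold for FLS VIT_218s0001g03430. Of all features tested, 66.3% were below both other leaf libraries in leaf replicate 3. For 3 of the 5 members (FLS VIT_218s0001g03470, FLS VIT_218s0001g03430 and HY5) it was the lowest of all 6 libraries, as it was for 51.3% of all features. The part that its read composition plays in these levels was not tested.

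The way the genes varied over the 6 libraries was compared by the root mean square difference of their log2 levels, each centred on its own mean. Among the 10 pairs of members, FLS VIT_218s0001g03430 and HY5 were most alike, with a difference of 0.62, followed by MYBF1 and HYH with 1.35. The other 8 pairs differed by 2.46 to 5.19, and the FLS genes differed from each other by 2.76. As the 6 libraries fall into 2 tissues, this is a description of tissue pattern and carries no test.

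By the same measure, the genes outside the set whose pattern was nearest to each member were VIT_217s0000g07770 and VIT_217s0119g00150 for FLS VIT_218s0001g03470 (0.40 and 0.43), and VIT_204s0008g01820 and VIT_214s0068g00650 for FLS VIT_218s0001g03430 (0.16 and 0.17). They were VIT_218s0001g13130 and VIT_218s0001g08750 for MYBF1 (0.42 and 0.45), VIT_212s0059g01220 and VIT_200s1616g00010 for HY5 (0.21 and 0.28), and VIT_205s0102g00830 and VIT_219s0015g00530 for HYH (0.27 and 0.37). The table used here gives no name for these identifiers. VIT_217s0000g07770 shared the shape of FLS VIT_218s0001g03470 down to leaf replicate 3, with 534, 728 and 0 counts in the leaf replicates and 106, 32 and 42 in the EC replicates.

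The loci numbered around the FLS pair were compared as well. Of the 15 loci around the pair, from VIT_218s0001g03400 to VIT_218s0001g03560, 8 had enough counts to be tested, and the other 7 had at most 6 counts in any library, as had 24.8% of all features. With all libraries, 2 of the 8 were called higher in leaf and 1 higher in EC, the last being FLS VIT_218s0001g03430 itself (edgeR), against 29.2% and 24.9% of all features. VIT_218s0001g03450, which is numbered between the FLS genes, stood at 20.9 to 34.3 RPM in leaf and 37.3 to 45.8 RPM in EC. On the TMM scale its libraries overlapped and it did not pass, with a log2 fold change of 0.10 (standard error 0.14; adjusted p = 0.556, edgeR), so for this locus the scale decides whether the tissues separate.

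Further along, VIT_218s0001g03540 had 5660, 4396 and 1045 counts in the leaf replicates and no count in EC, at least 1327-fold lower in EC against a floor of 3 counts per library (adjusted p = 9.03e-04, edgeR). In contrast to the FLS genes, it kept a high level in leaf replicate 3, at 79.6 RPM. The other locus called higher in leaf, VIT_218s0001g03550, had a log2 fold change of −0.63 (standard error 0.17; adjusted p = 0.0237, edgeR). With leaf replicate 3 left out, 5 of the 8 loci were called higher in leaf and 2 higher in EC, against 41.3% and 38.5% of all features, so these counts are near the background. The loci other than the FLS pair are given by identifier because no table used here describes them.

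**Figure D4:**
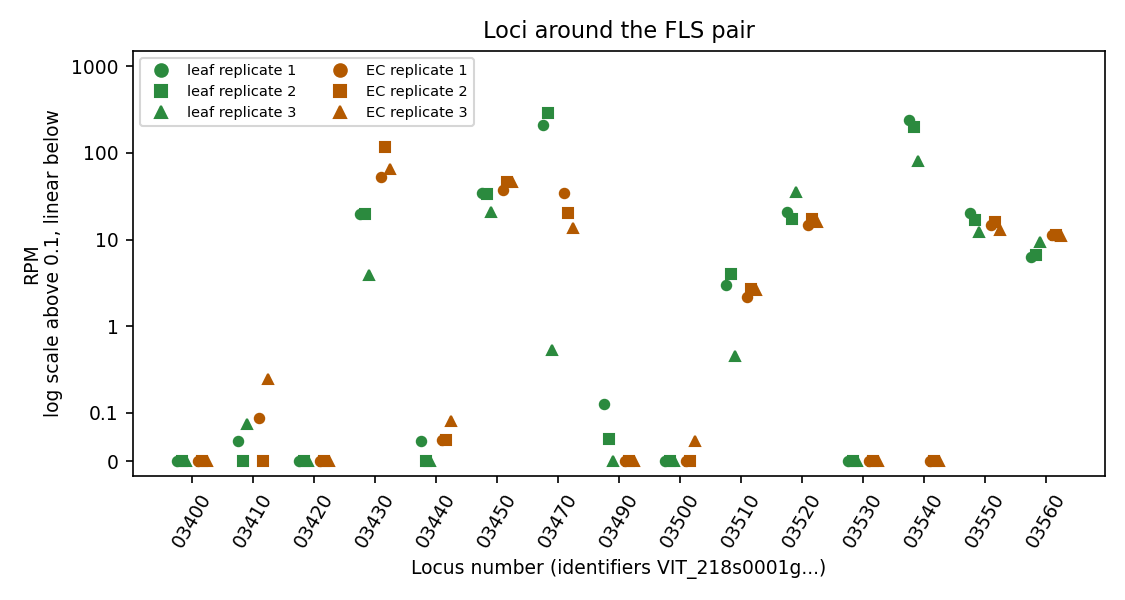
Levels of the 15 loci from VIT_218s0001g03400 to VIT_218s0001g03560 around the FLS pair, in RPM on a scale that is logarithmic above 0.1 and linear below, with a point for each library (green, leaf; orange, EC). Leaf replicates 1 and 2 are highest for VIT_218s0001g03470, the EC libraries are highest for VIT_218s0001g03430, and VIT_218s0001g03540 has no count in EC.

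Other steps of the pathway were read from short lists of identifiers assembled from general knowledge of grapevine, which no table used here annotates, so only counts are given. For chalcone synthase, chalcone isomerase and the flavonoid hydroxylases that supply FLS with its substrate, 8 of 9 listed loci had a row and all 8 were tested. None passed with all libraries (0 of 8 in either direction, edgeR, lowest adjusted p = 0.0566), where 54.1% of all features were called. Their median log2 fold change was −1.23 against −0.04 over all features. All 8 were called higher in leaf once leaf replicate 3 was left out, against 41.3% of all features, with log2 fold changes of −4.79 to −0.92 and a median of −1.69. Their summed level was 4007, 5425 and 132 RPM in leaf replicates 1, 2 and 3 and 594, 1097 and 600 RPM in the EC replicates, so leaf replicate 3 was below EC for these genes as it was for FLS.

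The 2 loci listed as glycosyltransferases, which attach sugars to flavonols, were both called higher in leaf with all libraries, as were 29.2% of all features. Their summed level was 99.2, 119 and 3.35 RPM in the leaf replicates and at most 0.0449 RPM in EC. With 4989 counts in leaf and 2 in EC, the ratio of pooled RPM was 2936, with a 95% exact interval for counting error of 812 to 24249. The EC counts lie below the 3 counts per library read here as a signal, so the size of this ratio is uncertain. Neither of the 2 loci listed for the branch from dihydroflavonols to anthocyanins passed with all libraries (lowest adjusted p = 0.0699, edgeR). That fit called 54.1% of all features. Both loci were called higher in leaf without leaf replicate 3, as were 41.3% of all features. Of the 2 loci listed as light signalling genes upstream of HY5, 1 was called higher in leaf and 1 higher in EC. With all libraries, these shares over all features were 29.2% and 24.9%. The log2 fold changes of the 2 loci were −2.78 and 0.65.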

How the data were processed

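RNA was measured in 3 leaf and 3 EC samples of Chardonnay, with 1 library each. The single table deposited by the authors holds raw counts per gene (V2.1 annotation) and per TE family. Reads from tRNA and rRNA had been discarded, HISAT2 was used to align the remainder to PN40024 12X, and TEtranscripts to count. Whether strand was used in counting is not given in the sources used here. The members and lists were chosen with earlier results of these data known.

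All 32075 features were analysed with edgeR 4.0.16 in R 4.3.3: TMM normalisation, filterByExpr by tissue (minimum count 10, minimum total 15), glmQLFit with robust dispersion and glmQLFTest on tissue. Standard errors were derived from the log2 fold change and the F statistic. The code was tested on simulated data. Within-library shares and ratios were compared with exact permutation tests in scipy 1.17.1. Genes named were the members, the loci around the FLS pair, and for each member the 2 genes of nearest pattern (prior count 0.5). The list of 15 pathway loci named no single gene, since 0 identifiers matched the RefSeq table.

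The alternatives were DESeq2 1.42.0 on the unfiltered table, edgeR with the size factors of DESeq2 or with unscaled libraries, TMM from genes alone or without features above 0.1% of counts, no filter, a minimum of 10 counts per library, limma 3.58.1 with voom, a replicate block, a 2-fold limit, pooled counts, 3 in place of 0.5 added to counts, and each library left out. limma-voom with sample weights, and the list counts without leaf replicate 3, were added after seeing the data. Figures were drawn with matplotlib 3.10.9.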

Additional observations from a re-analysis of the deposited data

How the results depend on the processing

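The signs of the 5 genes and of the 3 within-library comparisons were kept in every alternative that gave a value, and the calls of MYBF1 and HYH were kept wherever they were tested. With at least 10 counts required in every library, FLS VIT_218s0001g03470, MYBF1 and HYH were not tested, and 0 members were then called higher in leaf, in place of 2. FLS VIT_218s0001g03470 passed with DESeq2 (log2 fold change −3.16) and with limma-voom and sample weights (−3.86). HY5 passed with those weights (1.37), so that 2 members were then called higher in EC, against 40.4% of all features. In that fit the weight of leaf replicate 3 was 0.0577. With single libraries left out, the log2 fold change ranged from −3.70 to −2.49 for FLS VIT_218s0001g03470. It ranged from 1.71 to 2.30 for FLS VIT_218s0001g03430 and from 1.37 to 2.29 for HY5. In those fits 0 to 2 members were called higher in EC. The 2 came without leaf replicate 3, where 38.5% of all features were called higher in EC, against 24.9% with all libraries. This range is therefore not read as a result about the members. Over all features, 11655 were called with all libraries and 17989 without leaf replicate 3. The median log2 fold change of all features was −0.04 with TMM and 0.41 with library sizes alone, which moved FLS VIT_218s0001g03470 to −2.86 and HY5 to 2.18, and no call of a member changed. For FLS VIT_218s0001g03470, limma-voom without weights gave −1.70 (adjusted p = 0.529). Why these values moved was not tested.

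Same-numbered leaf and EC libraries did not deviate together (r of −0.01, 0.07 and 0.08 across features), so the numbers are not treated as pairs. With the replicate block 8858 features were called, and the calls of the 5 genes were as without it, with log2 fold changes of −1.96, 2.19, −6.84, 2.23 and −8.08 for FLS VIT_218s0001g03470, FLS VIT_218s0001g03430, MYBF1, HY5 and HYH. Depth limits MYBF1 and HYH in EC, where 3 and 11 counts stand behind the values.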

Other observations

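The EC libraries differed among themselves in which flavonol genes were high. EC replicate 2 was the highest EC library in RPM for FLS VIT_218s0001g03430 and HY5, while EC replicate 1 was the highest for FLS VIT_218s0001g03470 and, on 6 counts, HYH. Of the 8 tested loci listed for the steps before flavonol synthase, EC replicate 2 was highest for 7, and it was also highest for both loci of the anthocyanin branch. Over all 21550 features, EC replicate 2 was the highest EC library for 35.8% and EC replicate 1 for 27.9%. The cultures behind the replicates are not described separately, and no test was made of these orders.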
